A study of Rattus norvegicus with 9 samples.

Results

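The subunits of the oxidative phosphorylation system were examined in 9 RNA libraries of rat oligodendrocyte precursor cells (OPCs), separately for the genes carried by the nucleus and those carried by mitochondrial DNA. Members were the rows whose gene symbol began with the usual stems of complex I (Nduf), complex II (Sdha to Sdhd), complex III (Uqcr), complex IV (Cox4 to Cox8) and complex V (Atp5), or with Mt-nd, Mt-co, Mt-atp or Mt-cyb. The symbols matched 103 of 32623 gene rows and gave 99 distinct genes, 86 nuclear and 13 mitochondrial. The complexes were assigned from the symbols, so the group also held a few genes named with a complex that are not core parts of it, such as the complex V inhibitor Atp5if1 and the supercomplex factor Cox7a2l. For 4 symbols with several rows (Uqcrb, Cox6b1, Ndufv3 and Ndufa10l1) the row with the most reads was used, and reads shared between such rows make their values uncertain.

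Oxidative phosphorylation passes electrons from NADH and succinate through complexes I to IV to oxygen, and the proton gradient this builds drives ATP synthesis by complex V. Complexes I, III, IV and V are mosaics, with a few core subunits made inside the mitochondrion and all others encoded in the nucleus and imported, while complex II is wholly nuclear. In the oligodendrocyte lineage the system is known for meeting the high energy demand of cells that build myelin.

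The study compared 3 groups of wild-type (WT) rat brain OPCs in primary culture, all kept for 5 days in differentiation medium that was renewed every 2 days. Of the 9 libraries, 3 were basal, 3 came from cultures with 1 µM bavisant and 3 from cultures with 10 µM bavisant, a histamine H3 receptor antagonist. For the lower dose, 1 µM is the value in the sample label and the series design, whereas a protocol text has 1 mM. In each group the titles carry the numbers P11, P13 and P14, whose meaning is not explained. Whether the libraries come from separate cultures or animals is not stated, so p-values measure only the spread between these libraries, which may be technical.

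The libraries held 23.9 to 43.1 M reads (1 M is 1e6). Markers of mature oligodendrocytes (Mbp, Mag, Mog, Cnp and Mobp, 5 of 5 tested) summed to 26600 to 42937 CPM (counts scaled to 1e6 per library), against 2246 to 3168 CPM for the OPC markers Pdgfra, Cspg4, Ptprz1 and Vcan, so the day 5 cultures labelled OPCs carried both sets. Astrocyte markers (6 of 6 tested) summed to 1592 to 3340 CPM, microglial markers (6 of 6) to 336 to 506 CPM and neuronal markers (6 of 6) to 251 to 503 CPM. In RNA from whole cultures, fewer cells of a type and less RNA per cell cannot be told apart.

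The question first asked of these genes was how strongly each genome's subunits were represented. Levels between genes were compared in TPM, which is corrected for gene length and scaled to 1e6 per library. The 13 mitochondrial genes summed to 72063 ± 8492 TPM in basal cultures, 63084 ± 10460 at 1 µM and 75973 ± 12064 at 10 µM (SD, n = 3 each). The 86 nuclear genes summed to 24706 ± 1321, 25193 ± 1908 and 25469 ± 2012 TPM in the same order. The mitochondrial sum was 2.09 to 3.81 times the nuclear sum in the 9 libraries.

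**Figure D1:**
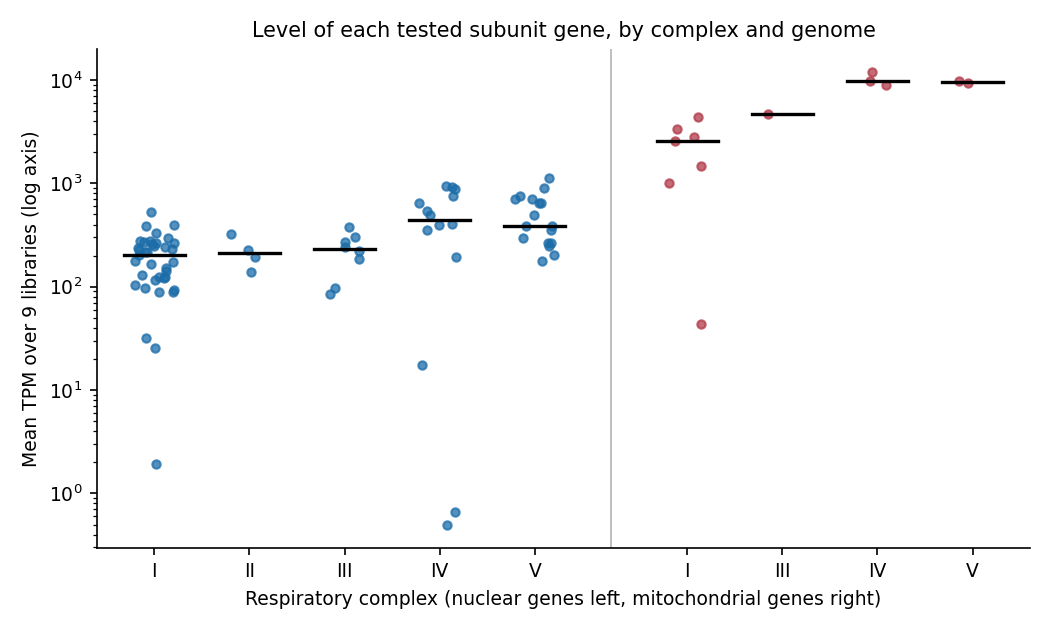
Mean TPM over 9 libraries (log axis) of the 80 nuclear and 13 mitochondrial genes tested, by complex; each point is a gene and the bars are medians. Mitochondrial genes lie above every nuclear gene except Mt-nd6 at 44.0 TPM and Mt-nd5 at 1018 TPM, and 4 nuclear genes of complexes I and IV lie under 20 TPM.

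Within the nuclear set, complexes IV and V had the higher levels per gene. The median over tested genes was 447 TPM in complex IV (14 genes) and 385 TPM in complex V (17 genes), against 205 TPM in complex I (37 genes), 211 TPM in complex II (4 genes) and 232 TPM in complex III (8 genes). The most abundant nuclear genes were the catalytic beta subunit of ATP synthase, Atp5f1b, at 1128 ± 69.0 TPM (SD, n = 9 libraries) and its alpha subunit Atp5f1a at 909 ± 29.8 TPM. The 2 levels did not overlap between libraries, since Atp5f1b was lowest at 1053 TPM and Atp5f1a highest at 957 TPM. The lowest member of complex V was the peripheral stalk gene Atp5pb, at 178 ± 23.8 TPM.

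Complex IV was led by Cox8a at 953 ± 80.7 TPM and Cox6a1 at 915 ± 51.2 TPM, both small membrane subunits, whose ranges overlapped. In complex I the highest genes were Ndufa4, which is also found bound to complex IV, at 530 ± 56.5 TPM and the accessory subunit Ndufb8 at 396 ± 40.1 TPM. In complex II the membrane anchor Sdhc (325 ± 20.6 TPM) stood above the iron-sulfur subunit Sdhb (229 ± 7.49 TPM) and the flavoprotein Sdha (140 ± 4.86 TPM). The 3 ranges of these complex II genes did not overlap. In complex III, Uqcr11 (378 ± 20.9 TPM) and the hinge protein gene Uqcrh (302 ± 26.8 TPM) were highest, and Uqcrq, at 84.9 ± 9.02 TPM, was lowest. Uqcrb was ranked by the row used, at 96.9 TPM. Its other row had 229 TPM, so its place in this order is uncertain.

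The mitochondrial genes were led by those of complexes IV and V. Mt-co1 (ENSRNOG00000034234), the catalytic subunit of complex IV, was highest at 11987 TPM on average, and its partners Mt-co2 and Mt-co3 averaged 9781 and 8952 TPM. The complex V genes Mt-atp6 and Mt-atp8 averaged 9708 and 9447 TPM, and the complex III gene Mt-cyb, cytochrome b, averaged 4701 TPM. The 7 complex I genes ran from 4427 TPM for Mt-nd3 down to 44.0 TPM for Mt-nd6, and in single libraries Mt-co1 was 174 to 416 times Mt-nd6. Mt-nd6 is the only one of these genes encoded on the other strand of mitochondrial DNA. The strand setting of the counting is not given, so its level is uncertain. The Mt-atp8 and Mt-nd4l genes overlap their neighbours Mt-atp6 and Mt-nd4, so the division of reads within these pairs is uncertain.

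Several complex IV subunits come in a common and a tissue-restricted isoform, and here the common one supplied nearly all the RNA. Cox4i2, the isoform known from lung, made up 0.0212 to 0.123% of the summed TPM of Cox4i1 and Cox4i2, and Cox4i1 averaged 759 ± 45.4 TPM. Cox6a2, the muscle isoform, had 11 reads in all, and Cox7a1, another muscle isoform, averaged 0.658 ± 0.337 TPM. Ndufa4l2, a paralogue of Ndufa4 known for its induction in hypoxia, made up 0.141 to 0.550% of the summed TPM of that pair. Cox6b2, known from testis, was the exception, with 2.24 to 6.43% of the TPM it summed to with Cox6b1. Only the Cox6b1 row with the most reads, at 354 TPM on average, entered this sum. Its other row had 194 TPM, and adding it would lower these shares.

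Of the 86 nuclear genes, 6 did not pass the filter on low counts. Cox8b, Cox8c and Cox6c-ps1 had 0 reads in all 9 libraries together (320.7 M reads). A count of 0 allows up to 3 reads over the pooled libraries, a level of 0.00935 CPM. Cox7b2 had 1 read, Cox6a2 11 reads and Ndufs6, a complex I subunit, 29.0 reads. How genes were counted is not given. For Ndufs6, and for Ndufa1 with 315 reads, little RNA and reads not assigned to the row cannot be told apart. The muscle markers Ckm and Acta1 (2 of 3 listed were matched) had 0.0428 to 0.265 CPM in sum. Cox7a2 and Ndufb1 were not analysed here.

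Promoter sequences were looked at because nuclear respiratory genes are known as targets of the factors NRF1 and of ETS proteins such as GABP. RefSeq promoters (build GRCr8, 250 bases before to 50 bases after the gene start) were matched by symbol for 74 of the 86 nuclear genes. The letters GCATGCGC (NRF1) were found on either strand in 9 of the 74 (12.2%), in 4.84% of the promoters of genes tested here and in 2.47% of all 33469 promoters. CCGGAAGT (ETS) was found in 8 of 74 (10.8%), against 7.58% and 3.81%. No promoter of the 74 held both. TGACGTCA (CRE) was found in 3 of 74 (4.05%, against 3.03% and 1.83%) and CCAAT in 25 of 74 (33.8%, against 37.5% and 37.5%). None of these strings contains another. The 4 stretches printed here, chosen after values were seen, are the 250 bases before the start of a gene with the NRF1 letters, 2 genes with paired ETS letters and the testis isoform with neither, all read 5′ to 3′ on the gene's strand with NRF1 and ETS letters in capitals. They lie at chr11:44657484-44657733, minus strand (Atp5po), chr16:19560276-19560525, plus strand (Ndufa13), chr1:213833624-213833873, minus strand (Cox8a) and chr1:78122621-78122870, plus strand (Cox6b2).
Atp5po: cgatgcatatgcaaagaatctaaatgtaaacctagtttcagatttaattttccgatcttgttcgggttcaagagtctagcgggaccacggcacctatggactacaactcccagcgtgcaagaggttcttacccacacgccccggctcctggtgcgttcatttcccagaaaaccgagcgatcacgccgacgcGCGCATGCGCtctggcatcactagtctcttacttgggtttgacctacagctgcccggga
Ndufa13: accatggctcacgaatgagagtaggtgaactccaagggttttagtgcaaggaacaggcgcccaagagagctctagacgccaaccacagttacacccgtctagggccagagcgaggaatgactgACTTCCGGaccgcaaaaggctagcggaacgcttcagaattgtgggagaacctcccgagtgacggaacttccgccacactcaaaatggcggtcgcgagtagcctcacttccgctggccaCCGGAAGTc
Cox8a: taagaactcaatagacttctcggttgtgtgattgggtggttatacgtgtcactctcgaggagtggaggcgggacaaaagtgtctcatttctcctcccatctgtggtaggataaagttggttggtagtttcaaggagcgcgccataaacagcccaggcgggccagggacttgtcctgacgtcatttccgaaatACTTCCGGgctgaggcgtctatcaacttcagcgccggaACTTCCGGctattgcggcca
Cox6b2: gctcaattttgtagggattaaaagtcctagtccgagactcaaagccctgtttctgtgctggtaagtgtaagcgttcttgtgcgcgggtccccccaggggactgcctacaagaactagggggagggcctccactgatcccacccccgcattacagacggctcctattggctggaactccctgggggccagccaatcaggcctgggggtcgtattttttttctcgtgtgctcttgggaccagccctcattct
In Atp5po the capitals hold 2 overlapping matches, 1 on each strand, and Cox8a also holds the CRE letters, left in lower case. The 16 tested members with either string had a median level of 330 TPM and the 53 with neither had 232 TPM, which is a description of these letters and not of bound factors.

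Whether the higher dose of bavisant moved the subunits was asked by setting the 10 µM libraries against the basal ones. Nuclear subunit genes had estimates slightly above 0 in 77 of 80 tested genes, but no single one passed the test. Their median log2 fold change was 0.12, while the median over all 15321 genes tested was -0.01 with 47.8% above 0. Leaving out 1 library gave nuclear medians of 0.07 (without basal P14) to 0.21 (without 10 µM P14). Mitochondrial genes were above 0 in 13 of 13, with a median of 0.15 (0.04 without basal P13 to 0.24 without basal P11), but their direction differed between P numbers. The edgeR quasi-likelihood test called 0 of 80 nuclear and 0 of 13 mitochondrial genes (Benjamini-Hochberg adjusted p under 0.05), with 2 and 0 at an unadjusted p under 0.05. Over all genes it called 0.0%.

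Because libraries with the same P number deviated together, the fit with the P number as a block is given beside these values. It called 607 of 15321 genes (3.96%), 202 higher and 405 lower, of which 33.3% were higher, 15.7% under scaling by library totals and 17.1% on log2(TPM + 1). Leaving out 1 library gave 0 (without basal P11) to 581 (without 1 µM P13) such genes. With all libraries it still called 0 of 80 nuclear genes, 34 of them at an unadjusted p under 0.05, and 0 of 13 mitochondrial genes, 0 of them at that level. Over all genes, 3436 of 15321 had an unadjusted p under 0.05. DESeq2 with the block called 2 nuclear genes, Cox7b (0.23, adjusted p = 0.0239) and Atp5f1d (0.24, adjusted p = 0.0353), against 4.73% of 20300 genes. DESeq2 without the block and limma on log2(TPM + 1) called 0 members.

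**Figure D2:**
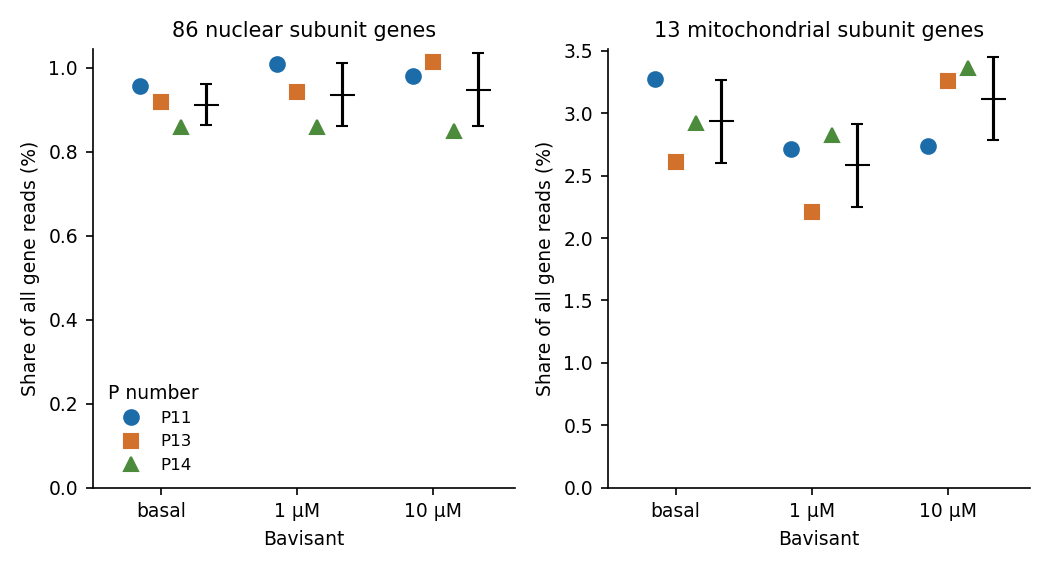
Share of all gene reads (percent) held by the 86 nuclear and the 13 mitochondrial genes in each library, by bavisant dose; symbols are P numbers and bars are the group mean ± SD (n = 3). The nuclear share is lowest in P14 in every group, and the mitochondrial share at 1 µM is below the basal share for each P number.

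The nuclear genes took 0.957%, 0.919% and 0.860% of reads in basal P11, P13 and P14, and 0.979%, 1.01% and 0.850% at 10 µM. The groups overlapped, and the share was above basal in P11 and P13 and below it in P14. Scaled by TMM and taken gene by gene, the median difference from basal was 0.09 in P11, 0.24 in P13 and 0.04 in P14 on the log2 CPM scale. Of the 80 genes, 53 (66.2%) were higher than basal in all 3 P numbers and 0 were lower in all 3, against 20.5% and 24.3% of all genes.

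Cox7b (ENSRNOG00000054689), a small complex IV subunit, had the lowest adjusted p of all members in the blocked edgeR fit of this comparison. It stood at 97.1, 78.9 and 72.0 CPM in basal P11, P13 and P14 and at 105, 98.4 and 86.0 CPM at 10 µM. Within each P number the 10 µM library was higher, while the groups overlapped. Its log2 fold change was 0.23 ± 0.05 (SE, blocked edgeR fit, adjusted p = 0.0510). It was called without the 10 µM P11 library (edgeR adjusted p = 0.0311, against 3.43% of all genes) and among genes of at least 100 reads on average (edgeR adjusted p = 0.0459, against 5.95% of them).

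Ndufs7, an iron-sulfur core subunit of complex I, had 41.8, 36.5 and 36.3 CPM in the basal libraries and 46.8, 43.2 and 40.8 CPM at 10 µM (0.19 ± 0.05, adjusted p = 0.0595 by edgeR with the block). The accessory subunit Ndufb7 had 58.1, 52.0 and 48.3 CPM against 67.3, 62.3 and 52.0 CPM (0.19 ± 0.05, edgeR adjusted p = 0.0740). Both were higher in each P number, and neither passed. At the other end, the complex I core genes Ndufs1 (-0.02 ± 0.04) and Ndufs3 (-0.01 ± 0.05) and the complex II flavoprotein gene Sdha, whose estimate rounded to 0, were the 3 genes with estimates below 0.

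For 4 complex I genes the 10 µM libraries lay wholly above the basal ones in CPM (4 of 80, 5.0%, against 9.33% of all genes in either direction). Ndufb10 ranged from 81.3 to 95.9 CPM against 72.4 to 78.8, and Ndufb4 from 47.8 to 53.5 against 44.2 to 45.5. Ndufa12 ranged from 44.8 to 49.5 CPM against 42.4 to 43.1, and Ndufs4 from 93.9 to 112 against 90.1 to 93.2. In TPM, 0 members had groups that did not overlap, so these separations are seen on the CPM scale.

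Gene length moved with the dose effect. Over all genes the blocked log2 fold change had a Spearman correlation of -0.28 with relative length (15321 genes of the same 9 libraries), and members were short, with a median relative length of 0.276 of the typical tested gene for nuclear and 0.315 for mitochondrial genes. With that trend removed, the nuclear median went from 0.12 to 0.05 and the mitochondrial median from 0.15 to 0.09. On log2(TPM + 1) the nuclear median was 0.03, with all genes at -0.07. Summed markers of mature oligodendrocytes did not overlap between the groups, at 27350 to 30160 CPM in basal and 39326 to 42937 CPM at 10 µM, and astrocyte markers were at 2157 to 3091 and 1592 to 2700 CPM. Their part in the subunit values was not tested.

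The mitochondrial genes did not keep 1 direction across P numbers. Their summed share of reads was 3.28%, 2.61% and 2.92% in basal P11, P13 and P14 and 2.74%, 3.25% and 3.36% at 10 µM. It was thus lower than basal in P11 and higher in P13 and P14, and the groups overlapped. The median difference over the 13 genes was -0.23 in P11 (1 of 13 above 0), 0.40 in P13 (12 of 13) and 0.23 in P14 (13 of 13). No gene of the 13 was higher, or lower, in all 3 P numbers, and without the 10 µM P13 library the blocked median was 0.00. The 1 mitochondrial gene called in any run of this comparison was Mt-nd4, without the 10 µM P11 library (0.48 ± 0.10, edgeR adjusted p = 0.0457).

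**Figure D3:**
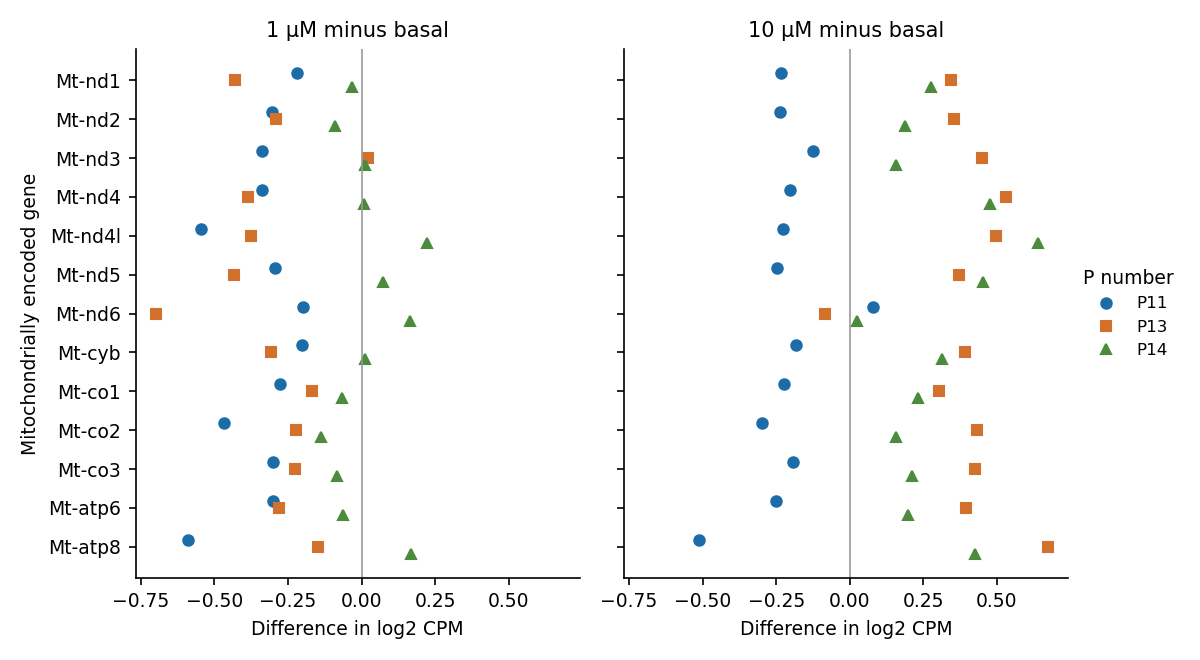
Difference in log2 CPM from the basal library of the same P number for the 13 mitochondrial genes at 1 µM (left) and 10 µM (right); symbols are P numbers. At 10 µM the P11 points lie below 0 for 12 of 13 genes while P14 lies above 0 for all 13, and at 1 µM P11 lies below 0 for all 13.

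The lower dose was examined in the same way, with the 1 µM libraries set against the basal ones. Mitochondrial genes had estimates below 0 in 13 of 13, with a median log2 fold change of -0.20 (-0.22 with the block), and nuclear genes had estimates slightly above 0 in 65 of 80, with a median of 0.04. None passed the test. The mitochondrial median moved with single libraries, to -0.05 without 1 µM P13 (4 of 13 above 0), -0.10 without basal P11 and -0.30 without basal P13, and with the block to -0.09 without basal P11 and -0.11 without 1 µM P13. The nuclear median turned to -0.04 without 1 µM P11 (24 of 80 above 0) and -0.01 without basal P14 (34 of 80). EdgeR called 0 genes of 15321 (0.0%) with and without the block, 0 of 80 nuclear and 0 of 13 mitochondrial genes in each. At an unadjusted p under 0.05 there were 0 members without the block, and 2 nuclear and 1 mitochondrial with it, among 582 of all genes. DESeq2 and limma on log2(TPM + 1) called 0 members.

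The mitochondrial share of reads at 1 µM was 2.71% in P11, 2.21% in P13 and 2.83% in P14. Each value was below the basal library of the same number, though the groups overlapped, and in P14 the difference was small. The median difference over the 13 genes was -0.30 in P11, -0.29 in P13 and 0.01 in P14, where 7 of 13 were above 0. In all 3 P numbers 6 of 13 genes were lower (46.2%), against 14.3% of all genes. The 13 genes were measured in the same libraries, so counts of them are not that many independent observations, here and in the other comparisons.

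In the blocked edgeR fit Mt-co2, a core subunit of complex IV, had the estimate farthest from 0 and the lowest p of the 13. It stood at 3012, 2630 and 3145 CPM in basal P11, P13 and P14 and at 2179, 2251 and 2860 CPM at 1 µM. Every P number was lower at 1 µM, and the groups overlapped (-0.28 ± 0.12 with the block, edgeR adjusted p = 1.00). The estimates of the other mitochondrial genes with the block ran from -0.24 for Mt-nd4 to -0.11 for Mt-nd3. They were -0.23 for Mt-nd2 and Mt-nd4l, -0.22 for Mt-nd1, Mt-nd5 and Mt-nd6, -0.21 for Mt-atp6, -0.20 for Mt-atp8 and Mt-co3, -0.17 for Mt-co1 and -0.16 for Mt-cyb.

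Among nuclear genes, Ndufs7 again had a low p, at 46.9, 41.9 and 39.6 CPM at 1 µM, above basal in each P number (0.16 ± 0.05 with the block, unadjusted p = 0.00731, edgeR adjusted p = 1.00). Ndufa1, a complex I accessory subunit with 315 reads in all, had 0.128, 0.649 and 1.03 CPM in basal and 1.08, 1.61 and 1.14 CPM at 1 µM. The groups did not overlap, as for Ndufa12 (43.4 to 45.6 against 42.4 to 43.1 CPM), which makes 2 of 80 (2.5%), against 2.91% of all genes. The basal P11 library was far below the other Ndufa1 values (1.06 ± 0.45). The accessory subunit Ndufs5, whose groups did not overlap in TPM, had 55.3, 52.0 and 47.5 CPM at 1 µM against 50.1, 48.4 and 43.7 CPM (0.12 ± 0.05). Of the estimates below 0, those with the smallest p were Atp5pb (-0.08 ± 0.07), Ndufs3 (-0.04 ± 0.05) and Ndufs1 (-0.03 ± 0.04). The nuclear median was -0.04 without the 1 µM P11 library and -0.01 without the basal P14 library in the fit without the block, and -0.0036 with the length trend removed from the blocked fit.

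**Figure D4:**
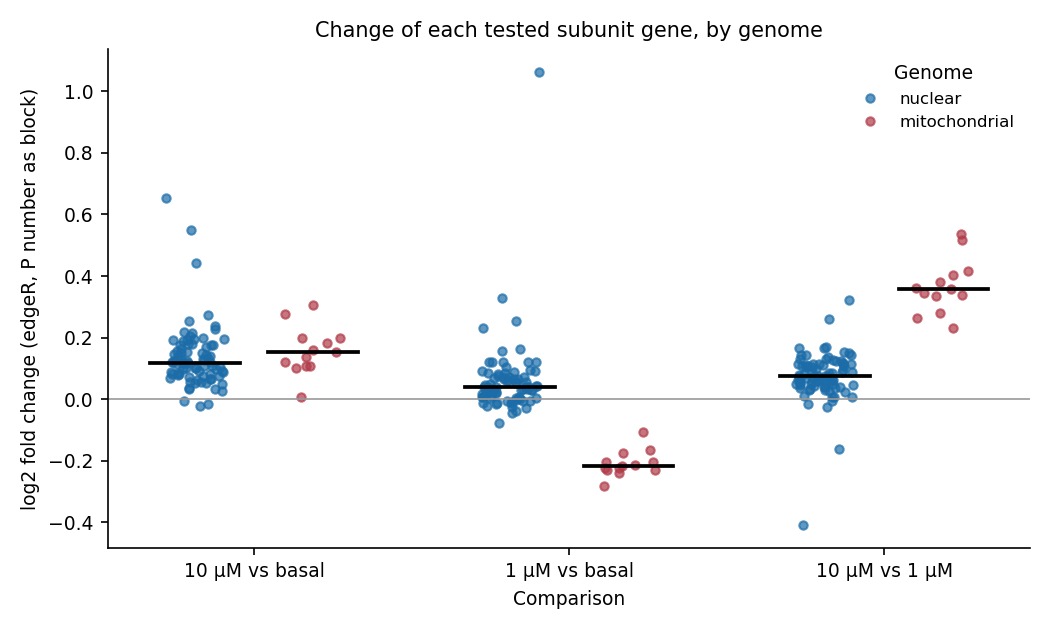
Log2 fold change (edgeR, P number as block) of the 80 nuclear and 13 mitochondrial genes tested, in the 3 comparisons; each point is a gene and bars are medians. The mitochondrial median lies at -0.22 at 1 µM against basal and at 0.36 at 10 µM against 1 µM, while the nuclear medians lie between 0.04 and 0.12.

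With the 2 doses set against each other, the mitochondrial genes had the larger median. At 10 µM against 1 µM, 13 of 13 mitochondrial genes had estimates above 0, with a median log2 fold change of 0.34 (0.36 with the block), and 75 of 80 nuclear genes did, with a median of 0.08. Leaving out 1 library gave mitochondrial medians of 0.22 (without 1 µM P13) to 0.42 (without 10 µM P11), and with the block of 0.20 (without 10 µM P13) to 0.51 (without 10 µM P11). The nuclear median was 0.01 without 1 µM P14 (51 of 80 above 0) and 0.17 without 10 µM P14. Summed oligodendrocyte markers did not overlap here either, at 26600 to 31329 CPM at 1 µM and 39326 to 42937 CPM at 10 µM, and their part in the subunit values was not tested. This comparison shares its 1 µM and 10 µM libraries with the other comparisons, so its values are no separate support for them. EdgeR called 0 of 15321 genes (0.0%) without the block, with 4 mitochondrial and 0 nuclear genes at an unadjusted p under 0.05. With the block it called 659 genes (4.30%), 200 higher and 459 lower, so that 30.3% were higher, 12.6% under library totals and 15.5% on log2(TPM + 1). Leaving out 1 library gave 0 (without 1 µM P11, 1 µM P14 or 10 µM P14) to 651 (without 10 µM P11) such genes.

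The blocked edgeR fit called 0 of 13 mitochondrial genes, though 11 had an unadjusted p under 0.05, and 0 of 80 nuclear genes, with 11 at that level. Over all genes, 3246 of 15321 had an unadjusted p under 0.05. DESeq2 with the block called 7 of 13 mitochondrial genes, all higher at 10 µM, against 4.82% of all genes. These were Mt-co2, Mt-co3, Mt-nd2, Mt-cyb, Mt-atp6, Mt-co1 and Mt-nd3, at adjusted p-values of 0.00432 to 0.0457. Without the 10 µM P11 library the blocked edgeR fit called 10 of 13, against 4.22% of all genes, and in its other runs that leave out 1 library it called 0. DESeq2 without the block and limma on log2(TPM + 1) with and without it called 0, as did the blocked fit among genes of at least 100 reads on average (background 5.87%).

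Mt-nd4 (ENSRNOG00000029707), a proton-pumping core subunit of complex I, had the lowest p of the 13 mitochondrial genes in the blocked edgeR fit. It was not among the 7 genes that DESeq2 with the block called. Its values were 1600, 1066 and 1690 CPM in P11, P13 and P14 at 1 µM and 1755, 2015 and 2337 CPM at 10 µM. All 10 µM libraries lay above all 1 µM libraries, with the basal libraries between and beside them at 2020, 1393 and 1681 CPM. Its log2 fold change was 0.52 ± 0.15 with the block (edgeR adjusted p = 0.0905).

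Mt-co1 stood at 10294, 7901 and 9456 CPM at 1 µM and at 10671, 10962 and 11639 CPM at 10 µM (0.28 ± 0.09, edgeR adjusted p = 0.139 with the block). Mt-cyb stood at 3019, 1962 and 2680 CPM and at 3059, 3183 and 3310 CPM (0.35 ± 0.12). Mt-nd2 stood at 1593, 1287 and 1634 CPM and at 1670, 2016 and 1982 CPM (0.34 ± 0.11). In these 3 genes as well the groups did not overlap, which makes 4 of 13 (30.8%), against 8.50% of all genes, and in TPM only Mt-nd4 kept the separation.

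The other mitochondrial genes had groups that overlapped. Their estimates with the block were 0.54 for Mt-nd4l, 0.42 for Mt-nd5, 0.40 for Mt-atp8, 0.38 for Mt-co2, 0.36 for Mt-nd1 and Mt-co3, 0.34 for Mt-atp6, 0.27 for Mt-nd3 and 0.23 for Mt-nd6. The median difference differed by P number, at 0.08 in P11, 0.68 in P13 and 0.30 in P14. In all 3 P numbers 11 of 13 genes were higher at 10 µM, against 20.5% of all genes, though the 13 genes are not independent observations. The 1 µM P13 library had the lowest mitochondrial share of all 9 libraries, at 2.21%.

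The nuclear genes with the lowest p were Ndufs4, an accessory subunit of complex I, with 86.8, 98.1 and 89.0 CPM at 1 µM against 93.9, 112 and 102 CPM (0.17 ± 0.05, blocked edgeR adjusted p = 0.0984), and Cox7b (0.15 ± 0.05, adjusted p = 0.136). Ndufc2, another complex I subunit, had 0.26 ± 0.09 (adjusted p = 0.156), with 98.8 CPM in the 10 µM P13 library and 59.6 to 79.3 CPM in the others. Of the estimates below 0, those with the smallest p were Ndufa1 (-0.41 ± 0.42), Cox7a1 (-0.16 ± 0.44) and Atp5if1 (-0.02 ± 0.07). The groups did not overlap for Ndufb10 and Ndufb4, higher at 10 µM, and Ndufa1, lower at 10 µM and on the TPM scale too. This makes 3 of 80 (3.75%), a smaller share than the 8.50% of all genes in either direction. The nuclear median of 0.08 was 0.00 on log2(TPM + 1), where 50.6% of the nuclear genes were above 0. On that scale the median over all genes was -0.07, with 28.5% above 0. The sign of the nuclear median thus depended on the scale, while on both scales it lay above the median over all genes. With the length trend removed from the blocked fit it was 0.05, with 69 of 80 genes above 0.

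The P number is described because many members passed the test across it, while none did across the doses in the edgeR fits with or without the block over all 15321 genes and 9 libraries. Most nuclear genes were ordered P11, P13, P14 from high to low, whereas most mitochondrial genes were lowest in P13. In the blocked fit, an F test over the 3 P numbers called 7884 of 15321 genes (51.5%), among them 60 of 80 nuclear and 4 of 13 mitochondrial genes. The median log2 difference of the nuclear genes was -0.11 for P13 against P11 and -0.25 for P14 against P11, and 63 of 80 had the order P11, P13, P14. For the mitochondrial genes these medians were -0.16 and 0.05, and 11 of 13 were lowest in P13. Signed as P11 against the mean of P13 and P14, the nuclear median was 0.18, and 57 of the 60 called nuclear genes were positive. Of the 7884 genes called over all genes, 50.5% were positive. As shares of all genes tested, 26.0% were called and positive and 25.5% called and negative.

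The nuclear share of reads was 0.981 ± 0.0253% in P11, 0.958 ± 0.0496% in P13 and 0.856 ± 0.00527% in P14 (SD, n = 3 doses). P14 lay below P11 and P13 at each dose. The ratio of mitochondrial to nuclear TPM was highest in P14 at every dose, at 3.23 in basal, 3.18 at 1 µM and 3.81 at 10 µM, above all 6 other libraries. In shares of reads this order did not hold for basal. There P11 had 3.28% mitochondrial and 0.957% nuclear reads, against 2.92% and 0.860% in P14. Summed vascular markers (3 of 4 matched) differed between P numbers, at 464 to 659 CPM in P11, 143 to 287 in P13 and 63.1 to 96.0 in P14, as did OPC markers, at 2246 to 2612, 2710 to 3061 and 3153 to 3168 CPM, and astrocyte markers, at 1592 to 2157, 2411 to 2896 and 2700 to 3340 CPM. Their part in these values was not tested.

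**Figure D5:**
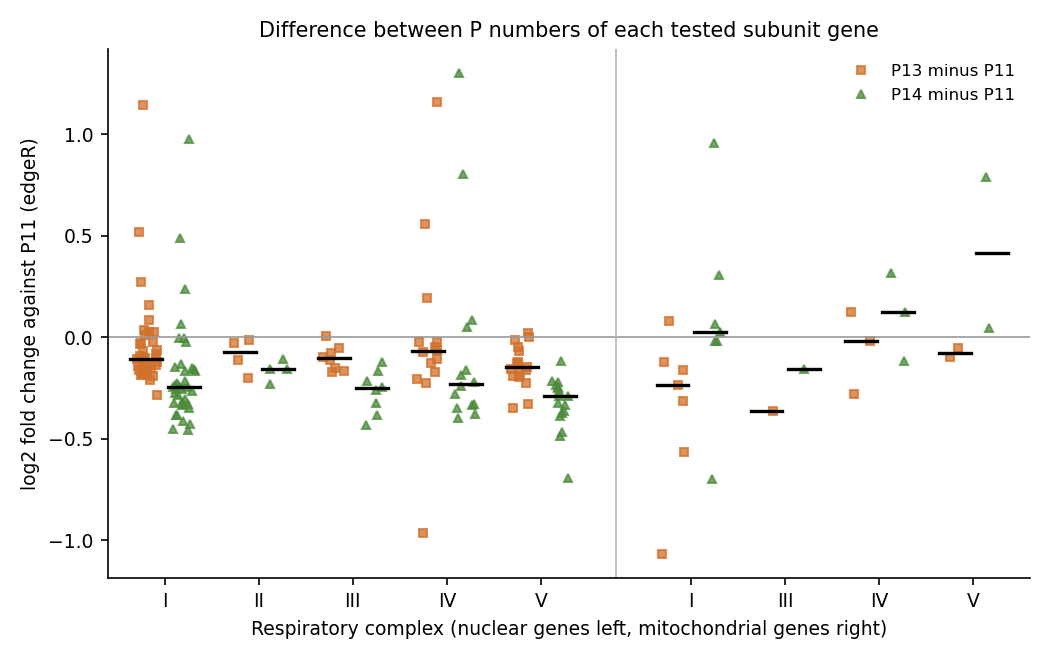
Log2 fold change (edgeR) of P13 and P14 against P11 for each tested gene, by complex; bars are medians. The nuclear medians of all 5 complexes lie below 0 and lower in P14 than in P13, and the points above 0.8 include Cox6b2 and Ndufa4l2 among nuclear genes and Mt-nd4l among mitochondrial genes.

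The clearest nuclear difference was in Atp5mc1 (ENSRNOG00000007235), 1 of 3 genes for the c subunit that forms the rotor ring of ATP synthase. It had 57.5, 60.8 and 60.9 CPM in P11 at basal, 1 µM and 10 µM, 42.0, 46.9 and 52.1 CPM in P13 and 35.5, 38.6 and 36.7 CPM in P14. The 3 P numbers did not overlap (0.52 ± 0.05 for P11 against the mean of the others, edgeR adjusted p = 0.000132). Atp5mc1 made up 15.7 ± 0.145% of the TPM of the 3 c subunit genes in P11, 13.8 ± 0.548% in P13 and 11.8 ± 0.519% in P14. The remaining TPM came from Atp5mc2, with 51.9% on average, and Atp5mc3, with 34.3%.

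Atp5po, a stalk subunit of ATP synthase whose promoter is printed above, had 168, 171 and 168 CPM in P11, 137, 143 and 154 in P13 and 120, 123 and 124 in P14 (0.35 ± 0.04, edgeR adjusted p = 0.000215). The complex I gene Ndufa13, with paired ETS letters, had 76.5, 78.7 and 78.4 CPM in P11, 66.0, 70.1 and 76.1 in P13 and 51.9, 61.1 and 57.6 in P14 (0.30 ± 0.05, adjusted p = 0.000755). In both genes the 3 P numbers did not overlap. P11 lay wholly apart from all other libraries in 28.75% of the 80 nuclear genes, 20 higher and 3 lower. It did so in 1 of 13 mitochondrial genes (7.69%). Both are smaller shares than the 37.9% of all genes in either direction. Further genes with the smallest p were the complex I subunits Ndufa7 (0.37), Ndufa9 (0.23), Ndufb8 (0.29) and Ndufb9 (0.31), the complex V subunit Atp5mg (0.29) and Cox7b (0.30), all higher in P11. All 9 of these and Cox6b2 were called in each of 9 runs that leave out 1 library.

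The 3 called nuclear genes with the opposite sign were Cox6b2, Ndufa4l2 and Cox7a2l. Cox6b2 (ENSRNOG00000038616) had 1.41, 2.28 and 1.93 CPM in P11, against 3.92, 4.06 and 4.57 in P13 and 2.56, 3.21 and 4.16 in P14, with P11 below all other libraries (-0.98 ± 0.16, edgeR adjusted p = 0.00231). Its part of the TPM it shares with the Cox6b1 row used was 2.71 ± 0.424% in P11, 6.03 ± 0.177% in P13 and 5.23 ± 1.12% in P14. Ndufa4l2 had 0.342, 0.513 and 0.669 CPM in P11 and 0.876 to 1.36 CPM in the other 6 libraries (-1.06 ± 0.21, edgeR adjusted p = 0.00873). Cox7a2l differed less, at 116 to 120 CPM in P11 and 120 to 141 CPM in the others (-0.12 ± 0.04).

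Of the mitochondrial genes, Mt-nd6, Mt-nd4l, Mt-nd5 and Mt-atp8 passed the test across P numbers. Mt-nd6 (ENSRNOG00000029042) had 11.9, 10.4 and 12.6 CPM in P11, 6.58, 4.03 and 6.21 in P13 and 6.80, 7.63 and 6.92 in P14, so that P11 lay above all others (0.88 ± 0.13, edgeR adjusted p = 0.00176). Mt-nd5 was lowest in P13 at each dose, at 666, 493 and 861 CPM against 1099, 897 and 925 in P11 and 853, 896 and 1167 in P14 (adjusted p = 0.0176). The 2 short genes that overlap a neighbour were highest in P14. Mt-atp8 had 383, 430 and 514 CPM in P14 against 194 to 343 in the other libraries (edgeR adjusted p = 0.0104), and Mt-nd4l had 139, 162 and 217 CPM against 58.8 to 108 (edgeR adjusted p = 0.00114).

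The TPM ratios of these 2 genes to the neighbours they overlap differed between P numbers. The division of reads within each pair is uncertain, so the ratios describe assigned reads and not separate expression of the genes. The TPM ratio of Mt-atp8 to Mt-atp6 was 1.31 ± 0.0882 in P14, 0.809 ± 0.0790 in P13 and 0.758 ± 0.0996 in P11, and that of Mt-nd4l to Mt-nd4 was 0.822 ± 0.0486, 0.465 ± 0.0135 and 0.405 ± 0.0478. By dose the ratio of Mt-atp8 to Mt-atp6 was 0.938 ± 0.251, 0.944 ± 0.347 and 0.998 ± 0.346 in basal, 1 µM and 10 µM. These SDs include the difference between P numbers. In the same order of doses the ratio was 0.871, 0.681 and 0.724 in P11, 0.727, 0.815 and 0.884 in P13, and 1.22, 1.34 and 1.39 in P14. Calls of 9 runs that leave out 1 library numbered 9 for Mt-nd6 and Mt-nd4l and 7 for Mt-nd5 and Mt-atp8. In these runs 12 mitochondrial genes were called without the 10 µM P13 library, 8 without the 10 µM P11 library and 3 to 6 in the others. Without the 10 µM P14 library 37 of 80 nuclear genes were called. Over all genes, 8328 of 15439 were called without 10 µM P13, 6678 of 15442 without 10 µM P11 and 6251 of 15441 without 10 µM P14.

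The other nine mitochondrial genes did not pass. Signed as P11 against the mean of the others, Mt-cyb had 0.26, Mt-co1 0.20, Mt-nd1 0.13, Mt-nd4 0.12, Mt-nd2 0.05, Mt-atp6 0.03, Mt-co3 -0.06, Mt-nd3 -0.20 and Mt-co2 -0.22. The median of the mitochondrial genes for P11 against the others had a different sign at the higher dose, a difference that was not tested, with values of 0.25 in basal, 0.14 at 1 µM and -0.30 at 10 µM. The nuclear medians kept their sign, at 0.17, 0.23 and 0.13. The nuclear genes also varied less over the 9 libraries, with a median coefficient of variation in TPM of 7.93%, against 15% for the mitochondrial genes.

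Genes that build and supply the system were counted from lists of assembly factors, mitochondrial DNA and RNA machinery, citric acid cycle, mitochondrial ribosome, biogenesis regulators and carriers. At 10 µM against basal, with the block, the assembly factors had a median log2 fold change of 0.09 (1 of 45 called, higher), and the mitochondrial ribosome 0.12 (1 of 74, higher), both smaller shares than the 3.96% called over all genes in the same fit. The medians were 0.04 for the DNA and RNA machinery (0 of 44, 3 at an unadjusted p under 0.05), 0.01 for the citric acid cycle (0 of 24, 5), -0.01 for regulators (0 of 21, 3) and 0.05 for carriers (0 of 28, 3). The called genes were Uqcc2, an assembly factor of complex III (0.27 ± 0.05, edgeR adjusted p = 0.0345), and Mrps10 of the mitochondrial ribosome (0.32 ± 0.07, edgeR adjusted p = 0.0472).

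Without the block 0 genes of these lists were called by edgeR in the dose comparisons, with 11 at an unadjusted p under 0.05 at 10 µM against basal. At 10 µM against 1 µM, with the block, the only called gene of these lists was Nfe2l2, a stress-response factor among the regulators (-0.26 ± 0.05, blocked edgeR adjusted p = 0.0314), 1 of 21 beside 4.30% of all genes. At 1 µM against basal none was called by edgeR, with 2 assembly factors and 1 gene each of the machinery, the ribosome and the regulators at an unadjusted p under 0.05. Tfam, which packages mitochondrial DNA and takes part in its transcription, had 0.02 ± 0.06 at 10 µM and 0.02 ± 0.06 at 1 µM against basal. The mitochondrial RNA polymerase Polrmt had -0.01 ± 0.07 and -0.08 ± 0.07. Nrf1 had 0.02 ± 0.05 and 0.01 ± 0.05, citrate synthase, Cs, 0.00 ± 0.04 at 10 µM, and cytochrome c, Cycs, 0.11 ± 0.06. The coactivator Ppargc1a had -0.52 ± 0.13 at 10 µM (blocked edgeR adjusted p = 0.0719) and -0.16 ± 0.13 at 1 µM.

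Across P numbers the F test called 17 of 45 assembly factors, 13 of 44 machinery genes, 21 of 24 citric acid cycle genes, 21 of 74 ribosome genes, 10 of 21 regulators and 15 of 28 carriers, against 51.5% of all genes. Cycs (0.29 ± 0.05) and Cs (0.19 ± 0.03) were higher in P11, as most nuclear subunits were, whereas Nrf1 was lower (-0.18 ± 0.05) and Tfam (-0.04 ± 0.05, edgeR adjusted p = 0.274) did not pass. Polg, the polymerase that copies mitochondrial DNA, was lower in P11 (-0.52 ± 0.04, edgeR adjusted p = 5.28e-05), and Pdhx of the pyruvate dehydrogenase complex was lower as well (-1.04 ± 0.07). Mrps7 of the mitochondrial ribosome (0.49 ± 0.04) and the cytochrome c1 gene Cyc1 (0.34 ± 0.04) were higher in P11.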

How the data were processed

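RNA was measured in 9 libraries, 3 per group, prepared with a stranded mRNA kit and sequenced as 75-base reads, per the labels. The tools named in the submitters' processing notes are DRAGEN, Trimmomatic, Picard and FastQC, and the build is rn6. How genes were counted, with which strand setting and annotation, is not given in these sources. The authors deposited estimated counts per gene (expected counts, unscaled, 92.4 to 93.0% whole numbers) and TPM, which the authors scaled by length within each library. Estimated counts were rounded. Genes were tested with edgeR 4.0.16 (quasi-likelihood F test, R 4.3.3) on all 9 libraries, TMM scaling and filterByExpr (count minimum 10, total minimum 15), with p-values adjusted by Benjamini-Hochberg over 15321 genes and called under 0.05. CPM are TMM-scaled. Relative gene length was taken from the ratio of counts to TPM.

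P numbers were taken to pair the libraries because deviations from group means correlated at 0.319 to 0.772 in all 9 same-number pairs, over the limit of 0.1, against -0.708 to 0.193 in 18 other pairs; the numbers come from the titles. The P number was therefore also fitted as a block. Replicates of a group were distinct libraries, with chi-square values of 24.3 to 119 per degree of freedom. The members and lists were chosen with earlier results of these data known. Named genes were all 13 mitochondrial members, the 2 highest and the lowest nuclear gene of each complex, the 3 nuclear genes above 0 and the 3 below 0 with the smallest p in each comparison, isoform genes, up to 10 members past a test, up to 4 genes past a test per list and 6 core list genes (Tfam, Polrmt, Ppargc1a, Nrf1, Cycs, Cs). Atp5f1d, Ndufa12, Ndufb10, Ndufb4, Ndufa4l2 and Cox7a2l where they fall outside this rule, and the printed promoters, were chosen after values were seen. Other settings were DESeq2 1.42.0, limma 3.58.1 on log2(TPM + 1) and log2(TPM + 0.1), other scalings and filters, the groups compared alone and leaving out each library. The steps were tested on simulated data. Floors cover counting error only, while SDs and SEs include the spread between libraries. Sequences came from RefSeq tables of build GRCr8, whose coordinates differ from those of rn6; protein sequences were not used here. 1 gene of the oligodendrocyte marker list is not reported here and was left out of its sum.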

Additional observations from a re-analysis of the deposited data

How the results depend on the processing

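In the runs on all 9 libraries, the medians of both genomes kept their direction under every scaling, filter, tool and block setting, with 3 exceptions. The nuclear median at 1 µM against basal was -0.0036 with the length trend removed (chosen after seeing the data). The nuclear median at 10 µM against 1 µM was 0.00 on log2(TPM + 1) and log2(TPM + 0.1). The mitochondrial median by P number was -0.0078 under library totals. The nuclear P number median was 0.13 under library totals and 0.13 with limma on log2(TPM + 1).

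At 10 µM against basal, genes called over all genes numbered 0 without the block and 607 with the replicate block, 609 with block and DESeq2 size factors, 834 with block and library totals, 607 with block and scaling without mitochondrial genes, 736 with block and a mean of 100 reads, 58 with DESeq2, 961 with block and DESeq2, 502 with block and limma, and 10 with the block without the P11 libraries. In the same order they numbered 659, 656, 926, 660, 726, 58, 979, 453 and 110 at 10 µM against 1 µM. At 1 µM against basal DESeq2 called 5 genes, and 11 with the block. Nuclear members called at 10 µM against basal were 1 with block and a mean of 100 reads and 2 with block and DESeq2; mitochondrial members called at 10 µM against 1 µM were 7 with block and DESeq2. With edgeR and all 9 libraries, the block changed no other call of a member; without the 10 µM P11 library it added Cox7b and Mt-nd4 at 10 µM against basal and 10 mitochondrial genes at 10 µM against 1 µM.

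Leaving out 1 library, with or without the block, gave 0 to 581 genes at 10 µM against basal, 0 to 2 at 1 µM against basal and 0 to 651 at 10 µM against 1 µM. Nuclear and mitochondrial calls at 10 µM against basal were 0 to 1 each, and mitochondrial calls at 10 µM against 1 µM were 0 to 10. By P number they were 37 to 70 nuclear and 3 to 12 mitochondrial, beside 6118 to 8328 genes called over all genes. The nuclear median at 1 µM against basal ran from -0.037 (without the 1 µM P11 library) to 0.12. Mt-co3 across P numbers ran from -0.17 to 0.087, and at 0.014 without the 10 µM P13 library it changed sign and passed the test; the cause was not tested. The low depth of Ndufa1, Ndufa4l2, Cox4i2 and Cox7a1 limits their estimates.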
